A study of Mus musculus with 10 samples.

Results

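The 9 genes described here, Prdm1, Xbp1, Irf4, Ikzf1, Ikzf3, Zbtb20, Pou2af1, Pou2f2 and Creb3l2, encode regulators of plasma cell fate, and were taken by symbol from the 47719 gene identifiers measured, with GENCODE M21 giving the symbols. All 9 were found, 1 identifier each, and all 9 had a mean of at least 1 FPKM over the libraries, a level scaled for transcript length and for the fragments mapped in a library. RNA-seq had been made from splenic plasma cells of mice in 2 groups, 5 libraries of cells sorted as IgM and 5 of cells sorted as IgG1. In both groups the cells came from transferred, congenically marked donor B cells with 3 alleles: S1PR2-CreERT2, a Cre recombinase that tamoxifen activates in cells using the S1pr2 promoter, which among B cells marks the germinal centre; Ai14, a tdTomato reporter switched on by Cre; and B1-8germ, a germline-configuration heavy chain gene whose product can bind the hapten NP. Hosts were wild-type, were immunized with NP-CGG in alum on day 0, and were given tamoxifen on days 5 and 6; donor tdTomato+ plasma cells were sorted on day 10. Both groups thus carry the same inserted heavy chain gene, and cells that did not use S1pr2 when tamoxifen was given are not represented. The sources used here do not give the age or number of the mice. Whether each library stands for its own mouse is not stated in the labels, so every p-value below measures the spread between libraries, which may be technical.

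A plasma cell is formed when a B cell switches from the factors that keep its identity to a small set that drives antibody secretion. IRF4 starts the change in a dose-dependent way and raises Prdm1, which encodes Blimp-1, a repressor of B cell genes and an activator of secretion genes. XBP1, made active by splicing of its mRNA in the unfolded protein response, enlarges the endoplasmic reticulum, and CREB3L2 is a related membrane-bound factor cleaved to enter the nucleus. The Ikaros family proteins IKZF1 and IKZF3 bind DNA through zinc fingers, and Aiolos (IKZF3) is needed for long-lived bone marrow plasma cells. ZBTB20 is induced by IRF4 and supports plasma cell survival. OCT2 (Pou2f2) binds the octamer element of immunoglobulin promoters together with its coactivator OBF-1 (Pou2af1).

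The regulators did not move as a block. Zbtb20 differed most, at 31.6% of its IgM level in IgG1 cells, followed by Prdm1 at 54.5% and Ikzf3 at 55.5%. Pou2af1, at 77.5%, was lower by a smaller but well separated amount, Irf4 and Ikzf1 were lower close to the threshold of the test, and Xbp1 alone was higher, at 109.1% of its IgM level. The Xbp1 call depended on the processing, as given below. Pou2f2 and Creb3l2 did not pass the test. In limma's moderated test on log2 of FPKM plus 1, with Benjamini-Hochberg adjustment over all 9900 genes tested and a threshold of 0.05, 7 of the 9 passed, against 38.3% of all tested genes. Of these, 6 were lower in IgG1 cells, where 20.2% of all tested genes were, and 1 was higher, where 18.1% were. The values of 4 members did not overlap between the groups, against 26.3% of tested genes, and all 4 were lower in IgG1 cells, against 13.3%. The median log2 difference, IgG1 minus IgM, was -0.33 over the 9 members and -0.05 over all tested genes.

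**Figure D1:**
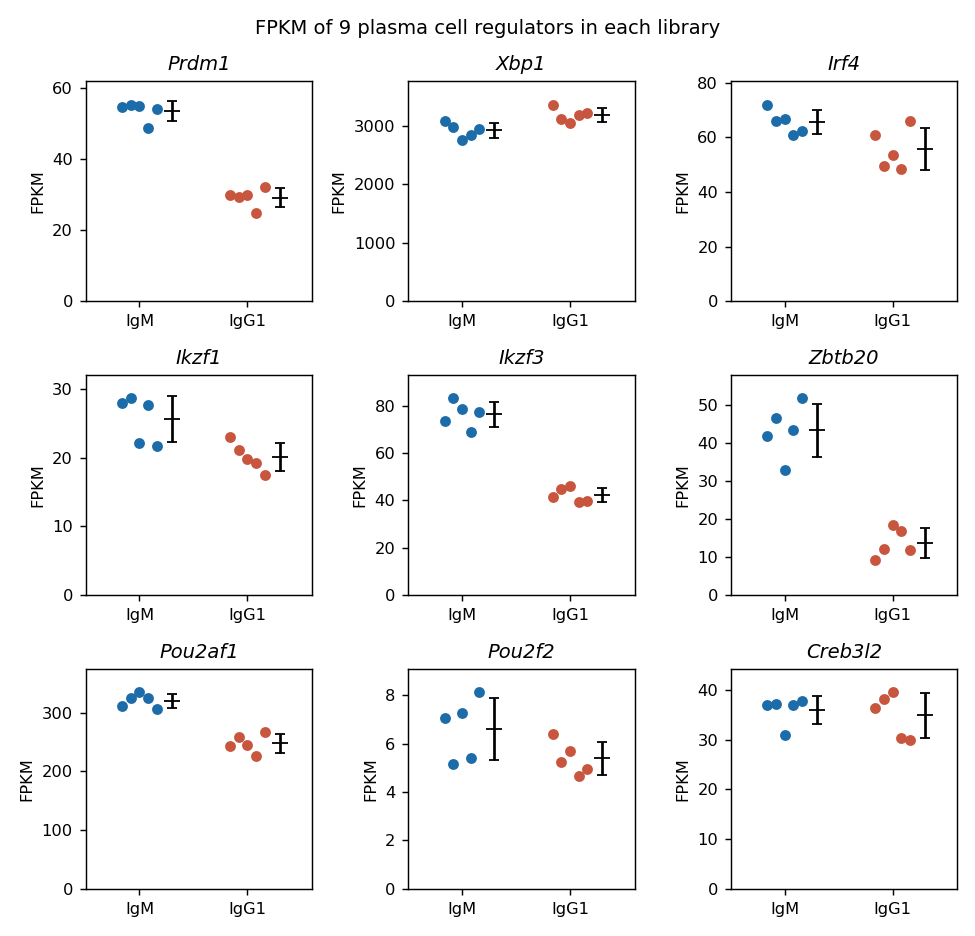
FPKM of each of the 9 regulators on a linear axis from 0, with 1 point per library (5 IgM in blue, 5 IgG1 in red) and the mean and SD beside each group in black. The IgM and IgG1 points are apart for Prdm1, Ikzf3, Zbtb20 and Pou2af1 and overlap for the other 5 genes.

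Several features of the libraries moved with the groups and their part in the results below was not tested. An approximate depth of 25970000 to 30270000 fragments was estimated for IgM and 25560000 to 37340000 for IgG1 libraries, and 15121 to 15800 genes were above 0 in IgM and 13286 to 13961 in IgG1 libraries. Ighm lay between 81237 and 90279 FPKM in IgM and between 1109.5 and 1306 FPKM in IgG1 libraries. Ighg1 lay between 86880 and 107616 FPKM in IgG1 libraries but also between 9465 and 19243 FPKM in the libraries sorted as IgM; whether cells of the other isotype were present was not tested. The plasma cell markers Sdc1, Jchain, Tnfrsf17 and Slamf7 were present in every library, and all 4 were lower in IgG1 cells. Log2 differences were -1.49 for Tnfrsf17, -0.88 for Jchain, -0.59 for Slamf7 and -0.13 for Sdc1, the last near the threshold (adjusted p = 0.0468) and lost in 7 of 10 analyses without 1 library. The Jchain call was lost under quantile normalization, which gives equal values to a gene with the same rank in every library. Before it, Jchain was at 36165 to 40282 FPKM in IgM and 19438 to 23043 FPKM in IgG1 libraries. Over the 6 plasma cell markers, which include Prdm1 and Xbp1, 5 were lower and 1 higher, with a median of -0.72 and summed levels of 40035 to 44249 FPKM in IgM and 23419 to 26853 FPKM in IgG1 libraries. For this and the marker lists below, 20.2% of all tested genes were lower and 18.1% higher. Of 12 cycling cell markers, 11 were higher in IgG1 cells and 0 lower, Mki67 (43.2 against 36.4 FPKM, adjusted p = 0.0625) being the exception, and their summed level was 803 to 941 FPKM in IgM and 1333 to 1404 FPKM in IgG1 libraries. The nuclear RNA Malat1 was at 2666 to 3905 FPKM in IgM and 383 to 717 FPKM in IgG1 libraries. Of 6 mature B cell markers 4 were tested, 3 lower and 1 (Cd79b, which plasma cells also express) higher, with summed levels of 568 to 631 and 639 to 706 FPKM. T cell markers summed to at most 5.04 FPKM in any library. Of 6 listed 2 were tested, with Cd4 higher in IgG1 cells (0.280 against 1.87 FPKM) and Lck not passing (2.13 against 1.32 FPKM). Cd3d, Cd3e, Cd3g and Cd8a were not tested and had lower means in IgG1 libraries, with Cd3e at no more than 0.0887 FPKM. NK cell markers summed to at most 2.28 FPKM, erythroid markers to at most 5.60 and neutrophil markers to at most 1.24. Of these, Ncr1, Gzma, Nkg7, S100a8, S100a9, Mpo, Elane and Camp were listed at 0 in all 10 libraries. Macrophage markers summed to 30.9 to 36.7 FPKM in IgM and 12.4 to 19.4 FPKM in IgG1 libraries, most of it from Cd68 (31.2 against 12.9 FPKM). Of these 6 markers 3 were tested, 1 (Cd68) lower and 0 higher, with a median log2 difference of 0.37. Itgam (0.599 against 1.47 FPKM) and Lyz2 (1.09 against 1.62 FPKM) had higher means in IgG1 libraries but did not pass. Fcgr1 was listed at 0 in 9 of 10 libraries. In bulk libraries, fewer cells using a gene and less of its RNA per cell cannot be told apart.

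Prdm1, Xbp1 and Irf4 form the core of the plasma cell programme. The promoters of Prdm1 and Xbp1 are shown first because their log2 differences had opposite signs in the fit above. Each line gives the 250 bases before a RefSeq transcription start (GRCm38.p6), 5′ to 3′ on the strand of the gene: chr10:44458749-44458998 on the minus strand for Prdm1 and chr11:5520391-5520640 on the plus strand for Xbp1. Capitals mark CCACG, the downstream part of the ER stress element, or TGGGAA, an Ikaros-like core, on either strand.
Prdm1: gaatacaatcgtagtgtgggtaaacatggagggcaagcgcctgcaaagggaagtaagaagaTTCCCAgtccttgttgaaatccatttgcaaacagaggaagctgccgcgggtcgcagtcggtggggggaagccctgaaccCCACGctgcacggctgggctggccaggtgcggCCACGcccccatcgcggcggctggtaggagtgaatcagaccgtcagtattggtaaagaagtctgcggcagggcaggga
Xbp1: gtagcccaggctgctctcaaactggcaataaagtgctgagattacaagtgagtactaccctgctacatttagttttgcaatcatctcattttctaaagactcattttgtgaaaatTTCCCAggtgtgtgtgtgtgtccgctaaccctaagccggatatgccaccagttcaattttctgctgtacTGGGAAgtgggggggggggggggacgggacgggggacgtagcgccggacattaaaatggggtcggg
CCACG was found at 2 places before Prdm1 and at none before Xbp1, and TGGGAA at 1 place before Prdm1 and at 2 before Xbp1. CCACG occurs in 28.3% and TGGGAA in 21.6% of all 32851 RefSeq promoter windows of this length. Such matches describe letters and show no binding, and the Prdm1 start lies inside the GENCODE span of the gene given below.

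Blimp-1 transcripts were lower in every IgG1 library than in any IgM library. Prdm1 (ENSMUSG00000038151, chromosome 10, 44437177 to 44528501, minus strand, GRCm38) was at 54.6, 55.3, 54.8, 48.7 and 54.0 FPKM in IgM replicates 1 to 5 and at 29.8, 29.2, 29.8, 24.8 and 32.2 FPKM in IgG1 replicates 1 to 5. The lowest IgM library, replicate 4, thus stood above the highest IgG1 library, replicate 5. The means (± SD, n = 5 libraries, here and below) were 53.5 ± 2.71 and 29.2 ± 2.70 FPKM, and limma gave a log2 difference of -0.86 with a standard error of 0.09 (adjusted p = 6.37e-07). Among the tested genes of its own group, Prdm1 stood at the 83.6th percentile by mean FPKM in IgM and at the 74.1st in IgG1 cells.

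The secretory regulator Xbp1 was the most abundant member, and its groups nearly separated in the other direction. Xbp1 (ENSMUSG00000020484, chromosome 11, 5520659 to 5525893, plus strand) was at 3087, 2989, 2765, 2849.8 and 2948 FPKM in IgM replicates 1 to 5 and at 3367, 3125, 3058, 3197 and 3225 FPKM in IgG1 replicates 1 to 5. All IgG1 libraries were above the IgM mean, and 4 of the 5 were above the highest IgM library. Mean levels were 2928 ± 124 and 3194 ± 116 FPKM, and the log2 difference was 0.13 with a standard error of 0.04 (adjusted p = 0.0104). The call was lost, at a difference of -0.0033, in a fit with length and GC trends removed (adjusted p = 0.958), and without trend or robust variance (adjusted p = 0.174). A gene-level FPKM counts spliced and unspliced Xbp1 mRNA together, so the active form was not measured.

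Irf4 lay between these extremes, with overlapping groups. Irf4 (ENSMUSG00000021356, chromosome 13, 30749226 to 30766976, plus strand) was at 71.9, 65.8, 66.8, 60.8 and 62.2 FPKM in IgM replicates 1 to 5 and at 61.0, 49.7, 53.7, 48.3 and 66.1 FPKM in IgG1 replicates 1 to 5. IgG1 replicate 5 exceeded the IgM mean, replicate 1 fell within the IgM range, and the other 3 were below every IgM library. Irf4 thus went from a mean of 65.5 ± 4.37 to one of 55.7 ± 7.61 FPKM, a log2 difference of -0.24 with a standard error of 0.09 (adjusted p = 0.0496). Leaving out a single library ended this call in 7 of 10 cases, namely replicates 1, 2, 3 and 5 of IgM and 2, 3 and 4 of IgG1, with adjusted p from 0.0565 to 0.126 for Irf4. With length and GC trends removed the difference was -0.077 (adjusted p = 0.504).

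The 2 Ikaros family members differed in how far they moved. Ikzf3 (ENSMUSG00000018168, chromosome 11, 98464902 to 98546031, minus strand) was at 73.7, 83.0, 78.6, 68.9 and 77.1 FPKM in IgM replicates 1 to 5 and at 41.5, 44.9, 45.8, 39.4 and 39.8 FPKM in IgG1 replicates 1 to 5. The highest IgG1 library was below the lowest IgM library. Ikzf3 means were 76.3 ± 5.31 and 42.3 ± 2.95 FPKM, with a log2 difference of -0.84 and a standard error of 0.08 (adjusted p = 2.02e-07). Ikaros, the related protein encoded by Ikzf1, is used across lymphoid cells from their earliest precursors. Ikzf1 (ENSMUSG00000018654, chromosome 11, 11685003 to 11772926, plus strand) was at 27.9, 28.6, 22.2, 27.7 and 21.7 FPKM in IgM replicates 1 to 5 and at 23.0, 21.1, 19.8, 19.2 and 17.5 FPKM in IgG1 replicates 1 to 5. Only IgG1 replicate 1 reached into the IgM range, above IgM replicates 3 and 5. Ikzf1 means were 25.6 ± 3.40 and 20.1 ± 2.08 FPKM, with a log2 difference of -0.33 and a standard error of 0.12 (adjusted p = 0.0343). Leaving out a single library ended the Ikzf1 call in 6 of 10 cases, replicates 1, 2 and 4 of IgM and 3, 4 and 5 of IgG1, with adjusted p from 0.0571 to 0.0857. Ikzf1 overlaps the antisense model Gm12000, at a mean of 1.53 FPKM, and with a kit that keeps no strand their reads cannot be told apart.

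Zbtb20, a BTB zinc finger repressor, showed the largest difference of the 9 and the largest coefficient of variation in IgG1 cells. It is a long gene with 21 annotated transcripts (ENSMUSG00000022708, chromosome 16, 42875881 to 43642602, plus strand), and the RefSeq start shown here, chr16:43247034-43247283 on the plus strand, lies inside that span. The 250 bases before it are shown because this member changed most, with capitals for TGGGAA, found at 1 place.
Zbtb20: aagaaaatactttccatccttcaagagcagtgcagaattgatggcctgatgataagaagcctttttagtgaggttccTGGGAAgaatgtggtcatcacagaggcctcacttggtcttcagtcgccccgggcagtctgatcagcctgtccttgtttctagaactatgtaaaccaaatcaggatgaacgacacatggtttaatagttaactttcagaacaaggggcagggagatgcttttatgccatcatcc
Zbtb20 was at 41.8, 46.6, 33.0, 43.5 and 51.7 FPKM in IgM replicates 1 to 5 and at 9.17, 12.0, 18.5, 16.8 and 11.9 FPKM in IgG1 replicates 1 to 5. The highest IgG1 library stayed well below the lowest IgM library. Zbtb20 means were 43.3 ± 6.90 and 13.7 ± 3.84 FPKM, a level 3.17 times as high in IgM cells, and the log2 difference was -1.62 with a standard error of 0.16 (adjusted p = 6.15e-07). A larger absolute log2 difference was measured for 2.23% of tested genes. Several small gene models lie within Zbtb20, among them the pseudogene BC002163 at a mean of 1.77 FPKM and the microRNA gene Mir568, listed above 0 in a single library (49.3 FPKM).

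The octamer pair was uneven in level and in difference. Pou2af1, the second most abundant member, is shown with the 250 bases before its RefSeq start, chr9:51213440-51213689 on the plus strand, because it carries CCACG or its complement at 2 places, in capitals.
Pou2af1: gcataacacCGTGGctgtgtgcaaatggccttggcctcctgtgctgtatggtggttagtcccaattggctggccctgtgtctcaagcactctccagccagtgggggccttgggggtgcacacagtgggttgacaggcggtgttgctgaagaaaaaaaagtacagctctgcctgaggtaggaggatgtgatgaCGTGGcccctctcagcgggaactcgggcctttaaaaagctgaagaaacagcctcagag
Pou2af1 (ENSMUSG00000032053, chromosome 9, 51213708 to 51240080, plus strand) was at 311, 325, 335, 325 and 306 FPKM in IgM replicates 1 to 5 and at 244, 259, 245, 226 and 268 FPKM in IgG1 replicates 1 to 5. Every IgG1 library was below every IgM library. Pou2af1 went from 320.3 ± 11.6 to 248 ± 16.02 FPKM, a log2 difference of -0.37 with a standard error of 0.05 (adjusted p = 2.64e-05). Pou2f2 (ENSMUSG00000008496, chromosome 7, 25087344 to 25179726, minus strand) was the least abundant member, at 7.05, 5.15, 7.26, 5.42 and 8.12 FPKM in IgM replicates 1 to 5 and at 6.40, 5.25, 5.71, 4.67 and 4.95 FPKM in IgG1 replicates 1 to 5. The groups overlapped, with IgM replicates 2 and 4 inside the IgG1 range. Pou2f2 means were 6.60 ± 1.27 and 5.39 ± 0.680 FPKM, and the log2 difference of -0.24 had a 95% interval from -0.60 to 0.12 (adjusted p = 0.285), which leaves room for a difference as large as that of Ikzf1. With length and GC trends removed, Pou2f2 passed at -0.43 (adjusted p = 0.0410).

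Creb3l2 showed no separation. It (ENSMUSG00000038648, chromosome 6, 37327255 to 37442146, minus strand) was at 36.9, 37.1, 31.0, 37.0 and 37.8 FPKM in IgM replicates 1 to 5 and at 36.3, 38.1, 39.5, 30.4 and 29.9 FPKM in IgG1 replicates 1 to 5. IgG1 replicates 2 and 3 were above and replicates 4 and 5 below all IgM libraries. Creb3l2 means were 35.9 ± 2.81 and 34.8 ± 4.45 FPKM, with a log2 difference of -0.05 and a 95% interval from -0.27 to 0.17 (adjusted p = 0.731).

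**Figure D2:**
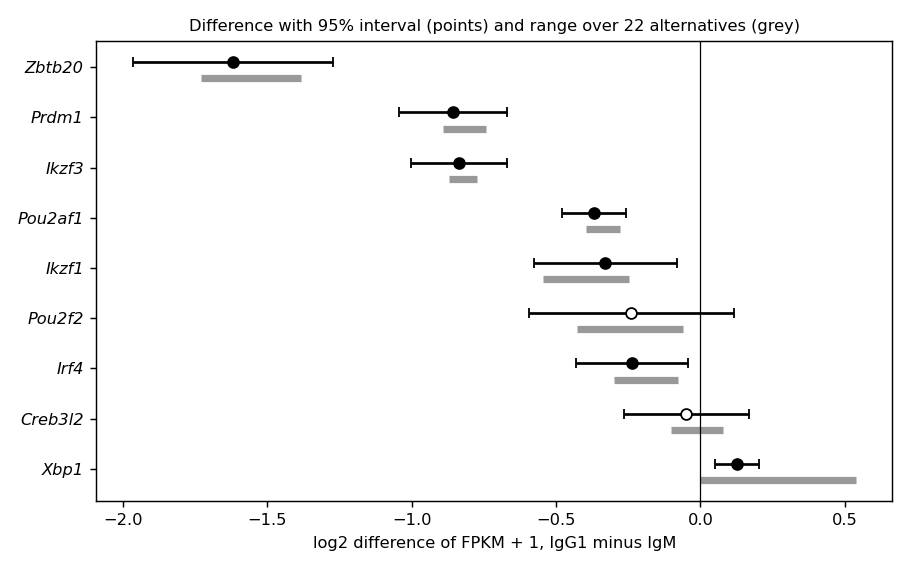
Log2 difference of FPKM plus 1, IgG1 minus IgM, for the 9 regulators, with 95% intervals as bars around points (filled where adjusted p was under 0.05) and the range over 22 alternative analyses in grey. The grey ranges of Zbtb20, Prdm1, Ikzf3, Pou2af1, Ikzf1, Irf4 and Pou2f2 stay below 0, though the 95% interval of Pou2f2 crosses 0. The Xbp1 range reaches from -0.0033 to 0.54, and the Creb3l2 range crosses 0.

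FPKM is scaled by transcript length, so the members can be ranked within a group. In IgM cells the order of mean FPKM was Xbp1, Pou2af1, Ikzf3, Irf4, Prdm1, Zbtb20, Creb3l2, Ikzf1 and Pou2f2. In IgG1 cells it was Xbp1, Pou2af1, Irf4, Ikzf3, Creb3l2, Prdm1, Ikzf1, Zbtb20 and Pou2f2. Ranges of neighbours overlapped in IgM cells for Ikzf3 and Irf4, Prdm1 and Zbtb20, and Zbtb20 and Creb3l2, and in IgG1 cells for Ikzf3 and Creb3l2, Creb3l2 and Prdm1, and Ikzf1 and Zbtb20. Irf4 and Ikzf3 thus changed places, with Ikzf3 the higher in 5 of 5 IgM libraries and Irf4 in 5 of 5 IgG1 libraries. Zbtb20 went from above Creb3l2 in 5 of 5 IgM libraries to below Ikzf1 in 5 of 5 IgG1 libraries. Between libraries of a group, Pou2af1 and Xbp1 varied least, with coefficients of variation of 3.61% and 4.25% in IgM and 6.45% and 3.65% in IgG1 libraries, whereas Zbtb20 varied by 15.9% and 28.1% and Pou2f2 by 19.2% and 12.6%. Medians over all tested genes were 17.7% in IgM and 18.9% in IgG1 libraries.

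Ratios of 2 genes within a library do not depend on a scaling by 1 factor per library. Those of Xbp1 and Irf4 to Prdm1 differed between the groups, as did the ratios to Prdm1 of 55.6% of other tested genes. Ratios can move where genes are adjusted unequally: the log2 differences of Xbp1 and Prdm1 were 0.54 and -0.85 under quantile normalization, and -0.0033 and -0.74 with length and GC trends removed. The geometric mean of Xbp1 over Prdm1 was 54.8 in IgM libraries, with a range of 50.4 to 58.5, and 109.9 in IgG1 libraries, with a range of 100.2 to 129. Irf4 over Prdm1 went from 1.22 (range 1.15 to 1.32) in IgM to 1.90 (range 1.70 to 2.06) in IgG1 libraries. Creb3l2 over Prdm1 went from 0.671 (range 0.565 to 0.759) to 1.19 (range 0.929 to 1.32). Ikzf3 over Prdm1 was 1.42 in IgM and 1.45 in IgG1 libraries, with overlapping ranges of 1.35 to 1.501 and 1.24 to 1.59. The ratio to Prdm1 did not overlap between groups for 5 of the other 8 members, and for 55.6% of the 9476 other tested genes above 0 in every library, so the members' count is near that background. Relative to Xbp1, 6 of the other 8 members did not overlap, all of them lower in IgG1 libraries, against 26.5% of those genes. The exceptions were Pou2f2 and Creb3l2. Ikzf3 over Ikzf1 was 2.99 in IgM (range 2.48 to 3.55) and 2.11 in IgG1 libraries (range 1.80 to 2.32), without overlap, and 3 of 8 members had ratios to Ikzf1 that did not overlap, against 25.4% of the other genes. With the remaining members as the reference, the count of 8 that did not overlap was 4 for Irf4 (25.4% of the other genes), 6 for Ikzf3 (54.4%), 6 for Zbtb20 (72.8%), 4 for Pou2af1 (34.9%), 3 for Pou2f2 (17.6%) and 3 for Creb3l2 (19.0%).

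**Figure D3:**
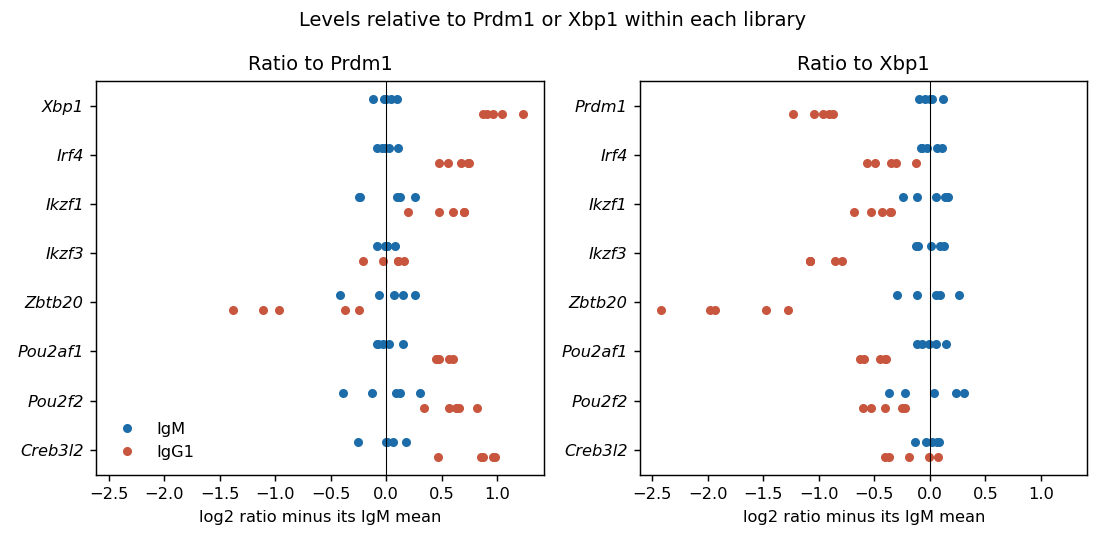
Log2 ratio of each regulator to Prdm1 (left) or to Xbp1 (right) within a library, minus the mean of the 5 IgM libraries, with 1 point per library (IgM in blue, IgG1 in red). Relative to Prdm1, Xbp1 lies to the right by 1.01 on average and Ikzf3 stays near 0, while relative to Xbp1 the other 8 genes lie to the left in IgG1 libraries on average.

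Of all genes tested outside the immunoglobulin genes and the 9 members, those whose profile over the 10 libraries was most like a member were found by the root mean square difference of log2 values centred on each gene's mean. For Prdm1 they were Csnk1g3 (a casein kinase, difference 0.08) and Itch (a ubiquitin ligase, 0.09), at 24.4 against 13.0 and 35.4 against 20.5 FPKM in IgM against IgG1 cells. The nearest other member to Prdm1 was Ikzf3, at 0.10, the smallest difference between any pair of members. For Xbp1 they were the Golgi glycosyltransferase Mgat1 (0.04, 361 against 409.6 FPKM) and the coatomer subunit Copa (0.04, 171 against 183 FPKM). Pou2af1 was nearest to Pdia4, a disulfide isomerase (0.05, 1841 against 1445 FPKM), and to Tram1, a translocon-associated protein (0.05, 547 against 416 FPKM). Nearest to Ikzf3 were Insig1, a regulator of sterol synthesis (0.09, 34.4 against 19.1 FPKM), and the noncoding 1810026B05Rik (0.10). Zbtb20 had no neighbour as close, with Rassf6 (0.19, 8.74 against 2.55 FPKM) and Gm20605 (0.21, 4.55 against 0.713 FPKM) the nearest. Irf4 was nearest to Dus3l (0.08) and Nus1 (0.09), Ikzf1 to Ddb1 (0.08) and Pdcl (0.09), and Pou2f2 to Fbxw5 (0.10) and Ube2q1 (0.11). Among the nearest to Creb3l2 was Canx (0.08), which encodes a chaperone of the endoplasmic reticulum. The median difference over all genes was 0.51 for Prdm1, 0.32 for Xbp1 and 0.88 for Zbtb20, so the larger differences for Zbtb20 stand beside a larger median. These are descriptions over 10 libraries that share their preparation.

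Relatives of the members in the IRF, Ikaros, POU and CREB3 families were lower or did not pass. Of 17 relatives 10 were tested, and 5, all interferon regulatory factors, were lower in IgG1 cells, with 0 higher and a median log2 difference of -0.36. Among all tested genes 20.2% were lower and 18.1% higher. Irf8, which in B cells shares DNA elements with Irf4, fell from 33.4 ± 3.07 FPKM in IgM to 10.3 ± 1.20 FPKM in IgG1 cells, a log2 difference of -1.61 with a standard error of 0.12 (adjusted p = 1.08e-08). Irf2 was at 33.7 against 20.4 FPKM, Irf1 at 21.0 against 12.9 and Irf7 at 23.6 against 17.6. Irf9 was lower by a log2 difference of -0.38 (adjusted p = 0.0266), a call lost without any one of replicates 2 and 4 of IgM or 3 and 4 of IgG1 (adjusted p up to 0.0732) and in 3 of 12 other alternatives (up to 0.0941). Ikzf2, Ikzf4 and Pou2f3 did not exceed 0.19 FPKM in any library, and Creb3l3 and Creb3l4 were listed at 0 in all 10. Ikzf5 and Creb3, which were tested, did not pass. Another 13 factors with known parts in plasma cell formation or secretion changed in both directions. Of 12 tested, 4 were lower and 4 higher (median log2 difference -0.02), against 20.2% and 18.1% of all tested genes. With length and GC trends removed 4 were lower and 2 higher, and under quantile normalization 4 and 3, with a median of 0.13. The elongation factor Ell2, which promotes secretory immunoglobulin mRNA, was at 197 against 148 FPKM and its partner Eaf2 at 764 against 611, while the E proteins diverged, Tcf3 at 44.5 against 56.7 and Tcf4 at 64.3 against 52.3 FPKM. Arid3a was at 31.8 against 42.3 FPKM and Atf6b, a membrane-bound ER stress factor, at 72.1 against 90.2 FPKM, the latter not passing with length and GC trends removed (adjusted p = 0.0984).

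Factors of the B cell stage, several of them repressed by Blimp-1, were low or changed in both directions. Pax5, Bcl6, Spib, Ciita and Id3, classical Blimp-1 targets, had means under 1 FPKM in both groups and were not tested, with no value above 1.31 FPKM in any library. Myc, the other classical target on the list, was higher in IgG1 cells, with means of 10.5 ± 2.48 in IgM and 18.0 ± 2.23 in IgG1 libraries and a log2 difference of 0.74 (standard error 0.16, adjusted p = 0.00115). Of 16 B cell stage factors 10 were tested (median log2 difference -0.20). In IgG1 cells 4 were lower and 3 higher, against 20.2% and 18.1% of all tested genes. With length and GC trends removed 4 were lower and 1 higher, and under quantile normalization the median was -0.0073. The lower ones were Irf8, Mef2c (164 against 82.1 FPKM), Foxp1 (33.1 against 15.8 FPKM) and Ets1 (27.1 against 15.6 FPKM), the latter a known restraint on plasma cell formation. Spi1, encoding PU.1, rose from 13.0 ± 1.64 to 19.9 ± 2.66 FPKM, a log2 difference of 0.57 (standard error 0.13, adjusted p = 0.00180), but did not pass with length and GC trends removed (0.38, adjusted p = 0.0507).

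Known targets of spliced XBP1 were mostly lower in IgG1 cells. Of 17 targets, all tested, 13 were lower and 2 higher, with a median log2 difference of -0.26. Among all tested genes 20.2% were lower and 18.1% higher. Dnajc3, an ER cochaperone, fell from 294 ± 21.6 to 182 ± 10.3 FPKM, a log2 difference of -0.69 (standard error 0.06, adjusted p = 7.89e-08). Dnajb9 was at 256 against 169 FPKM, Edem1, which marks misfolded glycoproteins for degradation, at 1391 against 938, and Serp1 at 973 against 675. The translocon subunit Sec61b was higher, with means of 1217 ± 58.9 and 1605 ± 82.2 FPKM and a log2 difference of 0.40 (standard error 0.04, adjusted p = 1.01e-06). Under quantile normalization 8 targets were lower and 3 higher, and Pdia4 (1841 ± 47.2 against 1445 ± 34.2 FPKM, log2 difference -0.35) turned to 0.028. Several of these targets are shared with other branches of the unfolded protein response.

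**Figure D4:**
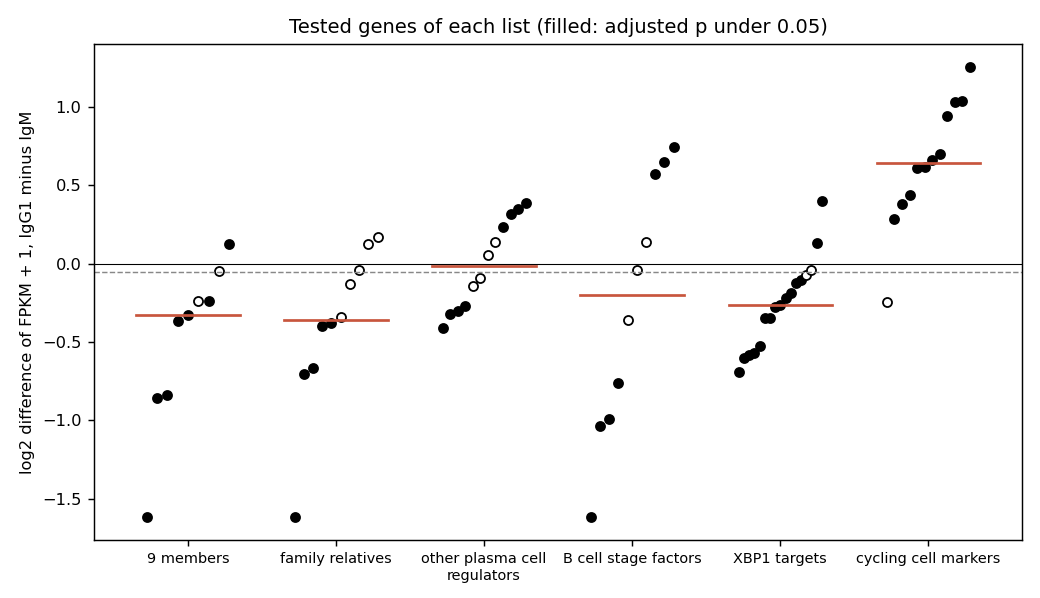
Log2 differences, IgG1 minus IgM, of the tested genes in 6 lists, with filled points for adjusted p under 0.05, a red line at the median of each list and a dashed line at the median of all tested genes (-0.05). Medians are -0.33 for the 9 members, -0.26 for XBP1 targets and 0.64 for cycling cell markers.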

How the data were processed

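The labels' protocols name the miRNeasy Micro kit for RNA and Takara's SMART-Seq mRNA HT LP chemistry for the libraries. HISAT2 2.1.0, Cufflinks 2.2.1, Cuffdiff and GRCm38 are named in the submitters' processing notes; their settings and the annotation release could not be read from the labels. The authors deposited 1 table per library in FPKM, as its header says, with no scaling across libraries stated. Without such scaling, genes that take a large share of a library would lower all others. Median-ratio scaling changed little, with a median log2 difference over all tested genes of -0.0503 against -0.0509. Whether the values had already been scaled across libraries was not tested. Of 47719 identifiers, 47305 matched GENCODE M21, and no 2 tables were identical.

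A mean of 1 FPKM or more was required for testing, on log2(FPKM + 1), which understates changes of low genes, with limma 3.58.1 in R 4.3.3 (trend and robust eBayes, group as the only term, two-sided). Tables and plots used Python 3.11.15, pandas 2.3.3, numpy 2.4.6 and matplotlib 3.10.9. The fit was first tested on simulated data with 50 genes changed at each size. It recovered 52% of 1.5-fold, 76% of 2-fold, 100% of 3-fold and 94% of 4-fold changes, with 7 false calls, so small changes can be missed. Alternatives were other pseudocounts, filters, scalings and variance models, removal of length and GC trends, a replicate block and leaving out libraries. Depth was estimated as the number of fragments at which the lowest values of single-transcript genes come closest to whole fragments, assuming fragments of 200 bases; only 47.6% to 59.6% of those values came within 0.05 of a whole number, so it is approximate and gives no counting interval. All 9 members are named; of each other list, up to 6 genes that passed by smallest p, or, where none passed, the 2 most abundant by mean FPKM; and 2 nearest profiles per member, 1 of which is not reported here. Members and lists were chosen with earlier results of these data known. Promoter sequences are from RefSeq (GRCm38.p6), where 8 of the 9 members were matched. On both strands 7 short motifs were searched: ATGCAAAT (octamer), GAAANNGAA (IRF element), GGAANNGAA (ETS-IRF composite), AGTGAAAG (Blimp-1-like), CCACG (downstream part of the ER stress element), TGACGTCA (CRE) and TGGGAA (Ikaros-like core). The whole ER stress element was not searched for. CCACG was found before 3 members, against 28.3% of all 32851 promoter windows, and the Ikaros-like core before 3, against 21.6%. The ETS-IRF composite was found before 1 (Pou2f2), against 6.99%, and the other 4 motifs before none. With 8 members these counts are too few to read beyond those shares. Proteins were not analysed here.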

Additional observations from a re-analysis of the deposited data

Results flagged for a closer look

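Within groups of 5 libraries, the highest or lowest value was checked for a gap to its nearest neighbour of more than 0.71 of the range of its group, a rule that chance alone meets in about 1 in 20 groups. Of 96 groups checked over the members and the genes named from the lists, 7 met it, all in IgM cells. Among the members, Prdm1 was at 48.7 FPKM in IgM replicate 4 against 54.0 to 55.3 in the other IgM libraries, still above every IgG1 library. Creb3l2 was at 31.0 FPKM in IgM replicate 3 against 36.9 to 37.8 in the others. Eaf2 was at 852 FPKM in IgM replicate 3 against 728 to 754, and Ell2 at 172 FPKM in IgM replicate 1 against 198 to 206. Mef2c was at 182 FPKM in IgM replicate 4 against 156 to 163, Serp1 at 1050.4 FPKM in IgM replicate 1 against 937 to 961, and Tnfrsf17 at 121 FPKM in IgM replicate 5 against 139 to 146.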

How the results depend on the processing

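Over 22 alternatives, 10 of them leaving out 1 library, Prdm1, Ikzf3, Zbtb20 and Pou2af1 kept their direction and their call in every one, with adjusted p of at most 0.00323. Irf4 kept its direction but not its call, with -0.24 without a filter (adjusted p = 0.176), -0.24 without trend or robust variance (0.0979) and -0.077 with length and GC trends removed (0.504), and from -0.30 to -0.19 with 1 library left out (adjusted p = 0.0137 to 0.126). Ikzf1 lost its call without a filter (-0.33), under quantile normalization (-0.27) and without IgG1 replicates 4 and 5 (-0.25), and ran from -0.38 to -0.28 with 1 library left out. Xbp1 turned to -0.0033 with length and GC trends removed and stayed at 0.13 but lost its call without trend or robust variance; quantile normalization gave 0.54, which keeps only ranks. Pou2f2 passed at -0.43 with length and GC trends removed. Creb3l2 ran from -0.10 to 0.0016 with 1 library left out and came to 0.080 without IgG1 replicates 4 and 5. Pdia4 turned to 0.028 under quantile normalization. The cause of these changes was not tested. Without a filter 24060 genes entered both the variance fit and the adjustment, in place of 9900. Quantile normalization also moved the split of calls over all genes from 1791 higher and 2001 lower to 2182 higher and 1510 lower, and the median by 0.11. Of 39 genes named from the lists, 30 kept direction and call under every alternative they could be fitted in. The labels give both groups replicate numbers 1 to 5, but same-numbered libraries deviated together only weakly (correlations from -0.04 to 0.10), so the numbers are not taken as pairs. With a replicate block Prdm1 stayed at -0.86 and the count of members called stayed at 7, while the Sdc1 log2 difference lost its call (adjusted p = 0.0697). Fewer members were called in other fits: 1 higher and 4 lower without a filter, and 0 higher and 5 lower without trend or robust variance. With 1 library left out, 1 was higher and 4 to 6 were lower. FPKM without counts gives no counting error for the lowest values, such as those of Pax5 or Ikzf2.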
